A study of Caenorhabditis elegans with 2 samples.

Results

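The regions described here are autosomal introns of *Caenorhabditis elegans* that carried a peak of the Hox protein LIN-39 outside the promoter range given below. The authors' list of peaks that passed their reproducibility threshold is made up of the 4250 strongest entries of their pooled list. Members were chosen from it by position and not further by strength. From this list, called optimal here, every summit was kept that lay on an autosome, inside a protein-coding gene and outside every annotated exon. A summit was left out if it lay between 1000 bp upstream and 200 bp downstream of any protein-coding transcript start (Ensembl genes on the ce11 build). This gave 524 summits of 4250 (12.3%, 95% Wilson interval 11.4 to 13.4), or 16.0% of the 3279 autosomal summits, in 351 host genes. Of the 524, 276 were also found among the 4250 strongest peaks of both replicates' own lists, and 19 in neither.

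The peaks come from chromatin immunoprecipitation and sequencing (ChIP-seq) in strain OP18, genotype unc-119(ed3) III; wgIs18. The strain carries an eGFP-tagged *lin-39* as an inserted transgene besides the *unc-119* mutation, and both samples share both. Whole L3 larvae of pooled males and females were used, and the 2 samples are biological replicates of that single group, so no contrast between conditions exists. One label names LIN-39 as the antibody's target and another the eGFP-tagged protein, so whether untagged LIN-39 was also precipitated cannot be told from them. The worms' age is given as unknown. A whole larva mixes all tissues, so a peak does not say in which cells the protein was bound.

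LIN-39 is the midbody Hox protein of the worm. It keeps the vulval precursor cells competent to be induced and steers the migration of Q neuroblast descendants. Hox proteins are known to bind DNA together with Pbx and Meis partners (CEH-20 and UNC-62 in the worm), and a Hox-Pbx pair recognises a composite site with the core TGATNNAT. Introns of worm genes are mostly short, and long ones are known to hold enhancers and internal promoters.

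The composite core was looked for, on both strands, in a window reaching 50 bp to either side of each summit. It was present at 81 of the 524 intron summits (15.5%, Wilson interval 12.6 to 18.8), while 8.92% of all 4250 optimal summits held it. Among 165697 windows of the same length in autosomal intron sequence that the rule could keep, 6.37% held it. Of the windows below, 5 are shown because they are among the 8 strongest intron peaks with the motif, and that of *ccch-1* because its core lies almost at the summit. They are the plus strand of the RefSeq sequence on ce11, 5′ to 3′, in lower case with matches to TGATNNAT or its reverse complement in capitals. The windows are chrIII:1923709-1923809 (intron 14 of *pqn-41*, with 2 matches), chrIV:10341819-10341919 (intron 2 of *unc-43*) and chrV:10721993-10722093 and chrV:10727803-10727903 (both in intron 1 of T28B11.1). The others are chrII:1344746-1344846 (intron 11 of *jip-1*, with 2 matches) and chrV:11535685-11535785 (intron 3 of *ccch-1*).
pqn-41: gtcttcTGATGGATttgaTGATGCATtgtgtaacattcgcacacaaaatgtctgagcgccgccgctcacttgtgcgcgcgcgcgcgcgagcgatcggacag
unc-43: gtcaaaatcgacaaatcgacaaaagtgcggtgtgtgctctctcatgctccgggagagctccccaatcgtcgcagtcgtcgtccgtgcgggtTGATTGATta
T28B11.1, first window: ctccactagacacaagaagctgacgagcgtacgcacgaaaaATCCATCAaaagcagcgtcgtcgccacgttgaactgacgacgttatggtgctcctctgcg
T28B11.1, second window: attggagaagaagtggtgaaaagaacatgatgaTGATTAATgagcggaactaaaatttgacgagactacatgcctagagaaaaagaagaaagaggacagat
jip-1: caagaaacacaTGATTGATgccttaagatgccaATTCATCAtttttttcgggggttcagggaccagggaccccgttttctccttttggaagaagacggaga
ccch-1: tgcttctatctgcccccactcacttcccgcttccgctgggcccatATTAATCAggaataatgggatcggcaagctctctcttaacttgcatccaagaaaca

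A larger group of intron summits lay beside runs of alternating G and A. The hexamer GAGAGA, searched on both strands in the same way, was present at 164 of the 524 (31.3%, Wilson interval 27.5 to 35.4), while 28.2% of all optimal summits and 4.01% of the intron windows held it. It was also present, left in lower case, in the *unc-43* and *ccch-1* windows above. The composite core of the *unc-43* window was centred 44.5 bp from the summit. The next 3 windows show the forms the hexamer took, with GAGAGA or its reverse complement in capitals. They are chrIII:1926570-1926670 (also intron 14 of *pqn-41*), chrIII:6135356-6135456 (intron 1 of *mvk-1*) and chrV:6224618-6224718 (intron 5 of W06H8.6). The last 2 windows, chrII:14040404-14040504 (intron 1 of *daf-5*) and chrIII:8874512-8874612 (intron 4 of K01F9.2), are the intron peaks of the next highest signal after the *pqn-41* peak and held neither sequence.
pqn-41, second summit: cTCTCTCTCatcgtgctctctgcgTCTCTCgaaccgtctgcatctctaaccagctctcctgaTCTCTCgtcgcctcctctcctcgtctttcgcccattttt
mvk-1: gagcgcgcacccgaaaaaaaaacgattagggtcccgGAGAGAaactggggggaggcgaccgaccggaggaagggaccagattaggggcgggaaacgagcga
W06H8.6: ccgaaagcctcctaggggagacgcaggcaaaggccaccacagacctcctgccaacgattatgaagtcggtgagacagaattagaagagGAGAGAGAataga
daf-5: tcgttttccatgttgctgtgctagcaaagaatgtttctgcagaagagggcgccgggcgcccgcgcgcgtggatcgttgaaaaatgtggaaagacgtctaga
K01F9.2: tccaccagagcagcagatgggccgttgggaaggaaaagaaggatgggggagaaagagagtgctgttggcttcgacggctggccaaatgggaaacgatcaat

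By these searches 58 members held the composite core alone, 141 held GAGAGA alone, 23 held both and 302 (57.6%) held neither. The summit position behind every window was the midpoint of the peak in 519 of the 524 members. For those a distance from a summit is a distance from the peak's middle. Exceptions included the strongest peaks in *pqn-41*, *daf-5*, K01F9.2 and *unc-43*, whose windows are shown above. The authors' signal value, used only to rank peaks within a list, ran from 33.1 to 277 in the 524 members with a median of 47.6. The 1747 autosomal promoter summits had a median of 55.3 and the 734 intergenic ones 52.2. Only 4 members were among the 100 strongest optimal peaks, and 102 among the 1000 strongest.

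The strongest intron peak of all lay in *pqn-41*, which encodes a glutamine- and asparagine-rich protein. Its signal was 277, and it ranked 6 in replicate 1's own list and 365 in replicate 2's. The next lay in *daf-5*, the Sno/Ski partner of the dauer TGF-beta pathway, with a signal of 229.8 and ranks of 9 and 229. K01F9.2 followed with a signal of 217 and ranks of 26 and 95. *spe-15*, a myosin VI gene, held a peak of 216 with ranks of 24 and 168. All 4 were thus among the 500 strongest peaks of each replicate.

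The other 11 of the 15 strongest members had signals from 131 to 159.6. They lay in *soem-1*, T28F4.1, W06H8.6, *pqn-41* again, *unc-43* (the calcium- and calmodulin-dependent kinase CaMKII), *mvk-1* (mevalonate kinase) and *larp-1* (a La-related RNA-binding protein). The rest lay in Y62E10A.13, *csnk-1* (casein kinase 1 gamma), Y111B2A.12 and *mpk-1* (the ERK MAP kinase). The *mpk-1* peak, with a signal of 131, ranked 1848 in replicate 1 and 93 in replicate 2. The *unc-43* peak, with 142, ranked 117 and 427. All 15 were found among the 4250 strongest peaks of both replicates.

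Of the 8 strongest members with the composite core, those in *soem-1*, *mig-1* and F32B5.7 are not shown as sequence. The *mig-1* gene encodes a Frizzled receptor that guides Q neuroblast descendants. Its peak, in the first intron, had a signal of 95.2 and ranks of 554 and 904, and the core read TGATATAT, with its centre 20.5 bp from the summit. The *soem-1* peak had a signal of 159.6 and ranks of 374 and 114. Its summit also lay in an intron of another gene, as was the case for 4 of the 524 members. The peak in *jip-1*, a JNK scaffold gene, had 108 and ranks of 2327 and 181, and the F32B5.7 peak 90.2 and ranks of 799 and 797. T28B11.1 held 4 intron members, all in its first intron of 17091 bp, and 3 of them carried the core.

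**Figure D1:**
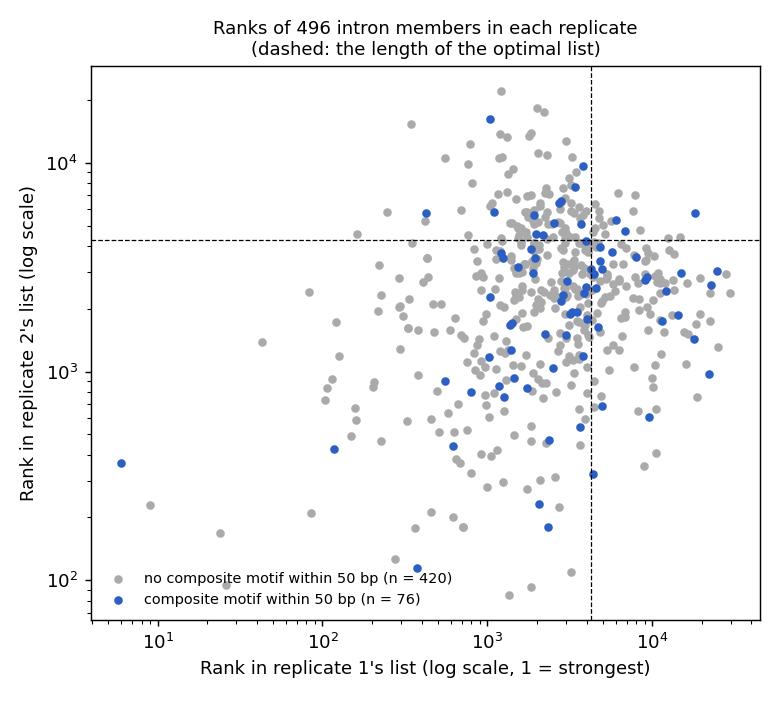
Each point is 1 of the 496 intron members with a peak in both replicates' relaxed lists, by its rank in replicate 1 (x axis, log scale) and replicate 2 (y axis, log scale), blue where TGATNNAT lay within 50 bp of the summit. The cloud is broad (Spearman rho 0.14) and members with and without the motif share it; the dashed lines stand at rank 4250.

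The replicates recovered intron members with different ranks. A member counts as found in a replicate where it overlaps, by at least 1 bp, a peak among that replicate's own 4250 strongest. In both replicates 276 members were found (52.7%, Wilson interval 48.4 to 56.9), while the share among all 4250 optimal summits was 56.7%. Another 99 were found in replicate 1 only, 130 in replicate 2 only and 19 in neither. In replicate 1's relaxed list of 30000 peaks, 501 members had a peak, with a median rank of 2342; in replicate 2's list of 27572 peaks 519 did, with a median rank of 2393. Over the 496 with both, Spearman's rho of the ranks was 0.14, given as a description, since the lists differ in length, the members were all chosen from the pooled list and the replicates share their control alignments.

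The 3 members whose ranks differed most were the strongest *pqn-41* peak, a *lit-1* peak and the second *pqn-41* peak. The *lit-1* gene encodes the Nemo-like kinase of the Wnt/beta-catenin asymmetry pathway. Its peak ranked 345 in replicate 1 and 15251 in replicate 2, with a signal of 72.7 in the optimal list, and the second *pqn-41* peak ranked 43 and 1382. In these 3 cases the better rank was replicate 1's.

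Promoter summits were found in both replicates in 59.7% of cases, and intron members minus promoter summits was -7.03 percentage points (95% interval of the difference -11.9 to -2.20; two-sided Fisher's exact test, p adjusted over 12 tests 0.0121). This call was lost in 4 of 9 alternatives. It was lost when 50% of both peaks had to overlap (-3.83 points, Fisher's exact test, adjusted p = 0.180) and when 1 member was kept per host gene (-3.01 points, adjusted p = 0.416). It was also lost among the 1000 strongest peaks (-1.31 points, Fisher's exact test, adjusted p = 0.757) and with a promoter range of 2000 bp upstream to 500 bp downstream (-5.83 points, adjusted p = 0.0958). With intergenic summits, at 53.1%, the difference was -0.462 points (interval -6.04 to 5.11; Fisher's exact test, adjusted p = 0.909). Over the alternatives tried the promoter difference ran from -11.2 to -1.31 points.

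The rule sets how close a member can lie to a start, so the distances are given as a description only. The median distance to the nearest protein-coding start was 1825.5 bp and the largest 13989 bp; 290 members lay within 2000 bp and 42 beyond 5000 bp. The nearest start belonged to the host gene in 469 cases (89.5%), and 151 members (28.8%) had their nearest start downstream of them and belonging to the same host, an internal start of the gene. The strongest *pqn-41* and *daf-5* peaks were of this kind, 3912 and 2733 bp upstream of another start of their own gene. Just inside the limits of the rule, the closest members lay 1010 bp upstream and 213 bp downstream of a start. Just outside, the farthest of the 247 gene-body summits left out by the promoter range lay 951 bp upstream and 196 bp downstream.

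Long introns held most of the members. Their introns had a median length of 4101 bp (79 to 23892), and 450 of the 524 were in introns of 1000 bp or more. The rule could keep 22.1 Mb of autosomal intron, over which the density was 23.7 members per Mb. In introns under 200 bp the density was 2.64 per Mb (7 members; exact 95% Poisson interval 1.06 to 5.44). It was 7.51 at 200 to 999 bp and 15.4 at 1000 to 1999 bp. Above that it was 48.0 at 2000 to 4999 bp, 76.4 at 5000 to 9999 bp and 90.1 (71.2 to 112) at 10000 bp or more.

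Introns of 1000 bp or more thus held 42.6 members per Mb and shorter ones 6.39, a ratio of 6.66 (exact 95% interval 5.20 to 8.63). Computed from a single replicate, the ratio was 4.77 (replicate 1) and 6.70 (replicate 2). It was 4.37 when summits in exons of noncoding genes were also let in, and 5.01 with 1 member per host gene. These intervals cover the counting of summits only. Summits of 1 gene are not independent, and no p-value was formed.

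Density also differed with position within the intron and the gene. Within 200 bp of an intron end the density was 8.76 members per Mb, at 200 to 999 bp 19.5, and at 1000 bp or more 82.7. Positions that far from both ends exist only in introns of 2000 bp or more, so this order partly repeats that by length. Within introns of 2000 to 4999 bp the densities were 33.4 (18.3 to 56.0), 35.6 (27.4 to 45.5) and 71.8 (57.4 to 88.7). Within introns of 5000 bp or more they were 30.7 (3 members, 6.32 to 89.6), 54.3 (35.1 to 80.1) and 88.9 (76.7 to 103). Only the innermost class of the 2000 to 4999 bp introns had an interval clear of both others.

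First introns held 187 members, 39.8 per Mb, and later introns 337, 19.3 per Mb, a ratio of 2.06 (1.71 to 2.47). Among introns of 1000 to 4999 bp the densities were 42.7 in first and 25.7 in later introns, with Poisson intervals that did not overlap (33.7 to 53.5 and 21.8 to 30.1). Among those of 5000 bp or more they were 86.8 and 76.5, and among those under 1000 bp 7.27 and 6.23, with overlapping intervals in both cases.

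**Figure D2:**
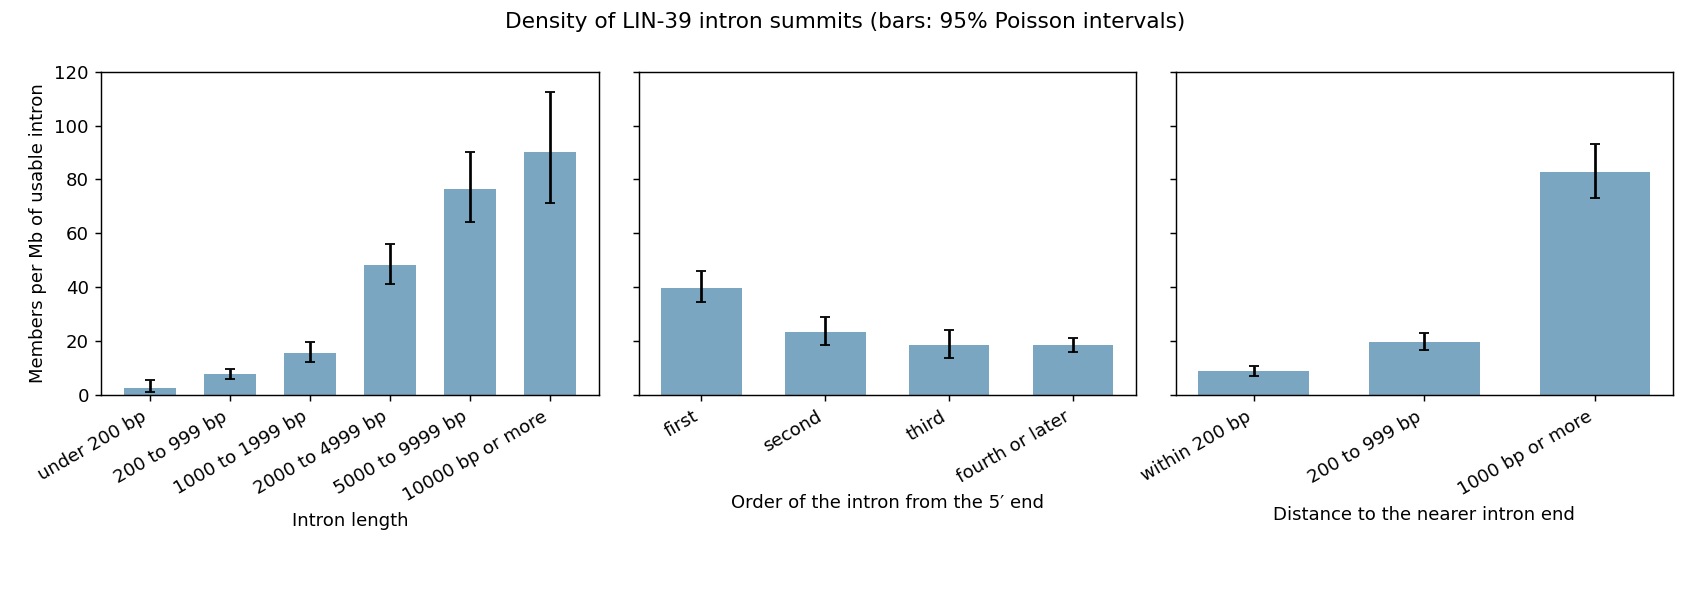
Bars give intron members per Mb of intron sequence that the rule could keep, by intron length, by the intron's order from the gene's 5′ end and by distance to the nearer intron end; lines are exact 95% Poisson intervals. Density climbs from 2.64 per Mb in introns under 200 bp to 90.1 in those of 10000 bp or more, and is 39.8 in first introns.

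Chromosome V held the fewest members, 73, at 15.7 per Mb (12.3 to 19.7), and chromosome III the most, 126, at 28.6 per Mb (23.8 to 34.1). Chromosomes I, II and IV held 116, 106 and 103, at 23.5, 28.5 and 23.3 per Mb. With each autosome cut into 3 equal lengths, the middle one had 35.0 members per Mb (30.4 to 40.2) and the outer 2 had 19.6 (17.5 to 21.9). Annotated noncoding genes lay within 200 bp of 84 members. Among them 54 members had a gene of the class ncRNA, 20 a snoRNA gene, 13 a tRNA gene and 6 a piRNA gene, and a member can count under several classes. Of the 15 strongest members, those in *spe-15* (ncRNA and tRNA), T28F4.1 (ncRNA) and W06H8.6 (ncRNA) were of this kind. The same count was not made over all optimal summits or intron windows, so these numbers cannot be called high or low.

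Among 14823 autosomal genes with intron sequence the rule could keep, 351 (2.37%) held a member. A single member was found in 249 of them, and 102 genes held 2 or more, 275 members in all. The gap between neighbouring members of 1 gene had a median of 1976 bp (201 to 24175). Host genes had a median of 5.91 kb of usable intron, against 0.634 kb over all 14823 genes.

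The *daf-5* gene held 8 members over 14885 bp, 6 of them in its first intron of 14446 bp. Their signals ran from 37.8 to 229.8 with a median of 49.8, none carried TGATNNAT or GAGAGA, and 4 were found in both replicates. The *ncl-1* gene, which encodes a TRIM-NHL regulator of nucleolar size, also held 8, over 8200 bp. Its signals ran from 36.2 to 85.8, 5 carried GAGAGA, 1 the composite core, and 5 were found in both replicates. The 6 members of *pqn-41* all lay in its intron 14 of 10372 bp, all were found in both replicates, and 4 carried GAGAGA. Some of these share a replicate peak: the members with signals of 124 and 55.4 both overlapped the peak ranked 715 in replicate 1 and 180 in replicate 2.

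Another 8 genes held 5 members each. They were *daf-16* (the FOXO factor of insulin signalling), *ppfr-1* (a phosphatase 4 regulatory subunit), *fkh-7* (a forkhead factor), *gcy-28* (a receptor guanylyl cyclase) and *kin-1* (the catalytic subunit of protein kinase A). The others were *egl-27* (an MTA-like chromatin protein of embryonic patterning), *lsy-22* and *ercc-1* (a DNA repair nuclease subunit). The spread along the gene was widest in *kin-1*, 31044 bp, and smallest in *egl-27*, 8072 bp. The composite core was carried by 3 of the 5 members in *ercc-1*, by 2 in *gcy-28*, by 1 each in *kin-1* and *lsy-22*, and by none in the other 4 genes.

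**Figure D3:**
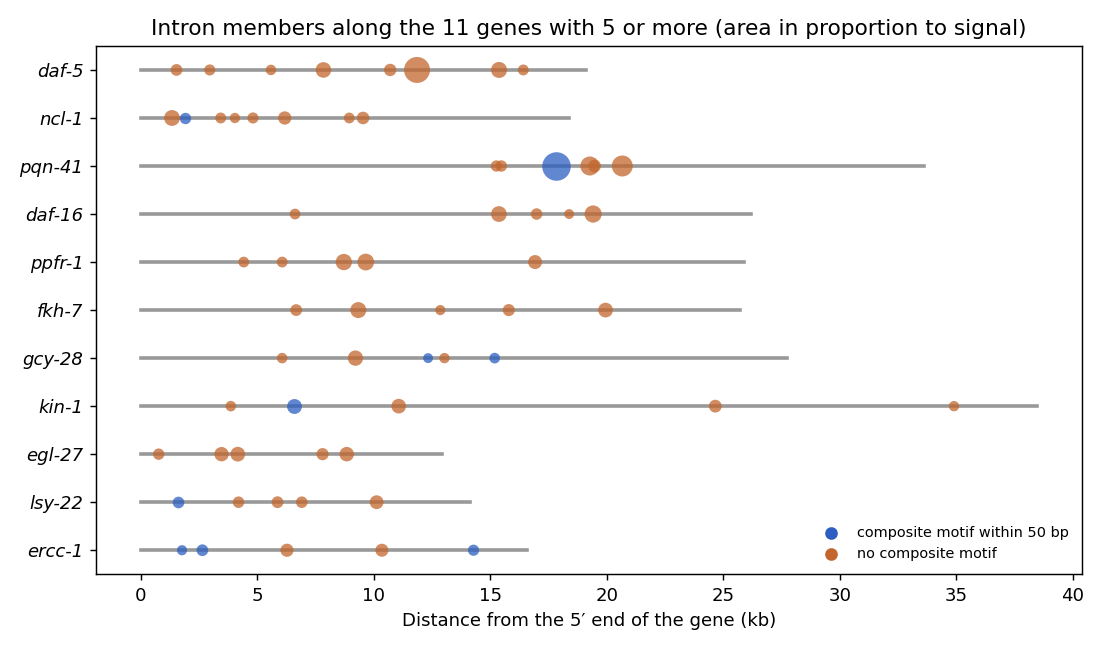
Each grey line is 1 of the 11 genes with 5 or more intron members, drawn from its 5′ end (x axis, kb), and each circle a member with an area in proportion to its signal, blue where the composite core lay within 50 bp. The members of each gene lie in 1 to 3 introns, and their span runs from 5407 bp in *pqn-41* to 31044 bp in *kin-1*.

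Genes of 8 lists that bear on LIN-39's tissues were then counted. The share of genes with a member is set beside the 2.37% of all genes, and it moves with the amount of intron: the median usable intron ranged from 1.01 to 4.56 kb across the lists. No list was tested, and the part of intron length in these shares was not tested.

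In the list of neuronal and synaptic genes 10 of 42 held a member, with a median of 3.37 kb of usable intron; their density was 86.1 members per Mb (49.2 to 139.8), while that of all usable intron was 23.7. The strongest were in *unc-43* (142), *dlk-1* (126; a MAP kinase kinase kinase of axon regeneration), *ida-1* (85.7; a dense core vesicle protein) and *unc-119* (53.2). The last is the gene mutated in the strain.

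In the list of cell migration and axon guidance genes 11 of 47 held a member. The strongest were in *cam-1* (125; a Ror receptor kinase, ranks 615 and 200), *mig-1* (95.2), *vab-1* (80.1; the Eph receptor, ranks 886 and 1429) and *unc-76* (78.7; a FEZ family axon protein). The netrin receptor genes *unc-40* and *unc-5* held 1 and 3 members, and the *unc-40* peak ranked 10540 in replicate 1 and 408 in replicate 2. In all, 21 members lay in this list, 79.5 per Mb (49.2 to 122), and 6 carried the composite core.

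Signalling genes of the Wnt, EGF-Ras, Notch and TGF-beta pathways held a member in 8 of 51 cases, at 87.3 members per Mb (52.6 to 136). Beside *daf-5* and *mpk-1* these were led by *sel-8* (85.0; a Mastermind-like Notch coactivator, 4 members) and *lit-1* (72.7). The Notch receptor gene *lin-12* and its nuclear partner *lag-1* held 1 member each, at 35.4 and 47.1, where the median of all members was 47.6. The *lag-1* peak ranked 1495 and 2298, among the 4250 strongest of both replicates. That of *lin-12* ranked 1932 and 5637. Of the 19 members in the list, 8 were those of *daf-5*, and 1 carried the composite core, that of *lin-12*.

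Homeobox and vulval transcription factor genes held a member in 7 of 47 cases, at 74.8 members per Mb (38.7 to 131). They were led by *egl-18* (94.0; a GATA factor of the vulval and seam lineages), *egl-27* (74.0), *sem-2* (44.8; a SoxC factor of the sex myoblasts) and *unc-55* (44.7; a nuclear receptor of ventral cord motor neurons). The *sem-2* peak ranked 1037 and 16220 and the *unc-55* peak 2961 and 4879, so neither was among replicate 2's 4250 strongest. The neighbouring Hox gene *mab-5* held 1 member in its intron 3, with a signal of 37.9 and ranks of 6913 and 2554, and GAGAGA beside it.

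Heterotrimeric G protein genes held a member in 7 of 26 cases, at 73.1 members per Mb (36.5 to 131), led by *eat-16* (121; an RGS protein), *kin-1* (75.6), *pkc-1* (72.1; a protein kinase C) and *pde-4* (67.0; a cAMP phosphodiesterase). RNA-binding and splicing genes did so in 5 of 40, at 124 members per Mb (66.2 to 213), led by *ncl-1* (85.8), *exc-7* (62.5; an ELAV homologue), *mex-3* (47.9; a KH domain protein) and *msi-1* (46.0; the Musashi homologue). Of the 13 members of that list, 8 were those of *ncl-1*. The *exc-7* peak ranked 18799 in replicate 1 and 757 in replicate 2. In the G protein list, the *eat-16* summit also lay in an intron of another gene.

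Body wall muscle genes held a member in 4 of 39 cases: *lim-9* (83.4; a four-and-a-half LIM domain protein), *lev-11* (56.9; tropomyosin), *unc-52* (39.5; perlecan) and *zyx-1* (38.3; zyxin). Of the 6 members in this list 3 carried the composite core, while 15.5% of all 524 members did. These 3 were the single members of *lim-9*, *lev-11* and *zyx-1*, and none of the 3 members of *unc-52* carried it. Of the strongest peaks of the 4 genes only that of *lev-11*, with ranks of 1205 and 3710, was among the 4250 strongest of both replicates. The density in this list was 30.1 members per Mb (11.1 to 65.6). Ion channel genes held a member in 2 of 38, *twk-7* (50.3; a two-pore potassium channel) and *unc-103* (49.9; an ERG potassium channel), although their median of 4.56 kb of usable intron was the highest of the 8 lists. Their density was 12.2 per Mb (2.52 to 35.8). The intervals of the muscle and ion channel lists include the 23.7 of all usable intron, and those of the other 6 lie above it. This is not a test, because the intervals count summits of 1 gene as independent. In addition, the lists were chosen with earlier results of these data known. Single genes, *ncl-1* and *daf-5*, held many of the members of the RNA-binding and signalling lists. The lists also differ in intron length, and densities were not split by length within them.

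The composite core was compared first with the sequence beside each summit. A window of the same length 500 bp toward the lower coordinate held TGATNNAT in 37 of 524 cases (7.06%, Wilson interval 5.17 to 9.58). The core was at the summit alone in 74 members and in the flank alone in 30, a difference of 8.40 percentage points (two-sided exact McNemar test over positions, adjusted p = 7.58e-05). The share depended on the replicate: among replicate 2's own strongest it was 15.9% of 535 intron summits against 7.48% in flanks, and among replicate 1's 9.71% of 525 against 6.48%. In replicate 1 the difference, 3.24 points, did not pass the exact McNemar test (adjusted p = 0.151), and among the 1000 strongest optimal peaks it was 5.88 points (102 members, exact McNemar test, adjusted p = 0.504). Tests here compare positions in 1 genome and do not measure spread between animals.

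Within the 81 members, the centre of the closest core lay a median of 20.5 bp from the summit, and 20 lay within 10 bp. The letters filling the core were TGATTGAT in 20, TGATAAAT in 14, TGATTTAT in 13, TGATGGAT in 10 and TGATTAAT in 7, with no other form in more than 3. In 25 bp steps, the share of members with a core was level across the window. It lay between 4.39% and 4.77% in every step from 50 bp before to 50 bp after the summit.

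No relation of the core to signal was detectable. It was present in 14.9% of the 262 members at or above the median signal and in 16.0% of the 262 below it (difference -1.15 points, interval -7.37 to 5.08; Fisher's exact test, adjusted p = 0.909). It was present in 28 of 187 members in first introns and 53 of 337 in later ones, and in 15.8% of members in introns of 1000 bp or more and 13.5% in shorter ones. Members found in both replicates held it in 14.5%, those found in replicate 2 only in 19.2% (25 of 130) and in replicate 1 only in 12 of 99 cases, with overlapping Wilson intervals.

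Intron members carried the core more often than promoter summits. It was present at 96 of 1747 promoter summits (5.50%), a difference of 9.96 points (interval 6.89 to 13.4; two-sided Fisher's exact test, adjusted p = 2.08e-11). Taken from each replicate's strongest peaks alone, the difference was 5.70 points for replicate 1 (adjusted p = 1.08e-05) and 9.02 for replicate 2 (adjusted p = 1.10e-08), by the same Fisher's exact test. With intergenic summits, of which 12.4% held the core, the difference was 3.06 points (interval -0.780 to 7.06; Fisher's exact test, adjusted p = 0.179). That last difference passed with a narrower promoter range or a wider motif window (4.04 and 5.30 points, Fisher's exact test, adjusted p = 0.0313 and 0.0389) and was -3.01 among the 1000 strongest peaks.

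**Figure D4:**
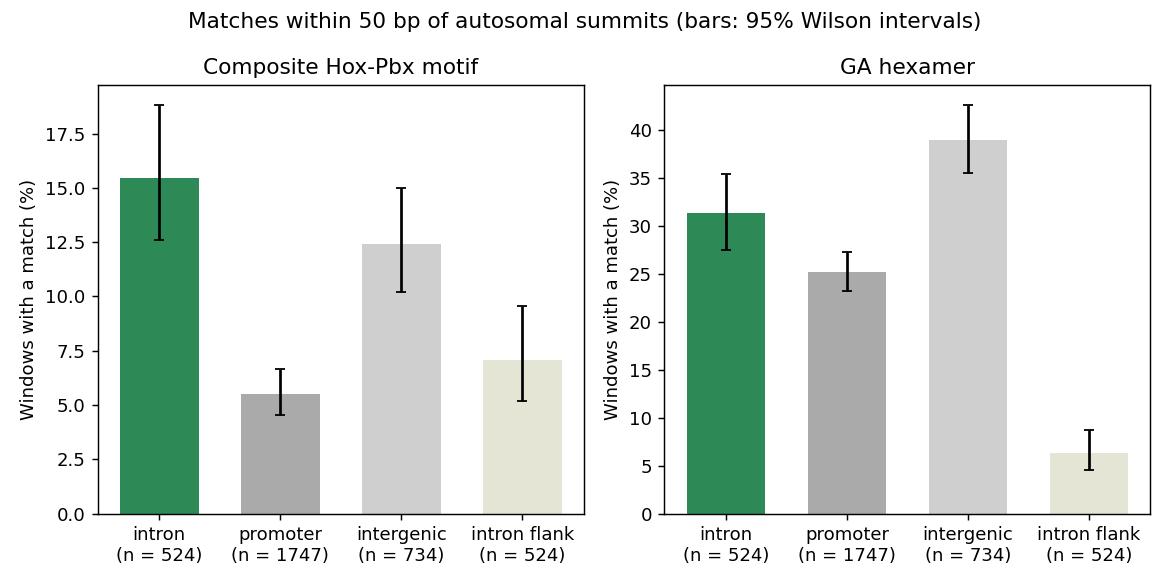
Bars give the percentage of windows (summit and 50 bp to either side) with TGATNNAT (left) and GAGAGA (right) at autosomal intron, promoter and intergenic summits and 500 bp beside the intron summits, with 95% Wilson intervals. For TGATNNAT the intron bar (15.5%) stands above promoters (5.50%) and flanks (7.06%); for GAGAGA intergenic summits are highest (39.0%).

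GAGAGA differed more strongly from the flanks. It was at the summit alone in 153 members and in the flank alone in 22, with 31.3% at summits and 6.30% in flanks, a difference of 25 points (exact McNemar test, adjusted p = 2.91e-24). Replicate 1's strongest peaks gave 20.8 points and those of replicate 2 gave 25.1. Of the 131 members of highest signal (68.1 and above) 42.7% held it (Wilson interval 34.6 to 51.3), and of the following sets of 131, from stronger to weaker, 25.2%, 32.8% and 24.4%. The 131 strongest and 132 weakest intron summits of replicate 1 held it in 35.9% and 20.5%. In replicate 2 the 133 strongest and 134 weakest held it in 33.8% and 26.9%, with overlapping Wilson intervals. Members in introns of 1000 bp or more held it in 33.6% and those in shorter introns in 17.6%.

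The comparison of GAGAGA between classes was chosen after these data had been seen. Promoter summits held it in 25.1%, and intron members minus promoter summits was 6.17 points (interval 1.81 to 10.7; Fisher's exact test, adjusted p = 0.0121), and intergenic summits in 39.0%, for a difference of -7.67 points (interval -12.9 to -2.31; Fisher's exact test, adjusted p = 0.0121). Neither call was made in both replicates, and both depended on other settings. In replicate 1's own peaks the difference from promoters was 0.644 points (Fisher's exact test, adjusted p = 0.776). In replicate 2's own peaks the difference from intergenic summits was -5.11 points (Fisher's exact test, adjusted p = 0.0822). The promoter call also ended with a promoter range of 2000 bp upstream to 500 bp downstream (3.75 points, Fisher's exact test, adjusted p = 0.225). The intergenic call ended in 6 of 10 alternatives. Beside replicate 2's peaks these were the 1000 strongest peaks (adjusted p = 0.757), the wider promoter range (0.179), windows within 25 bp (0.137) or 100 bp (0.302) and 1 member per host gene (0.319), all by Fisher's exact test.

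**Figure D5:**
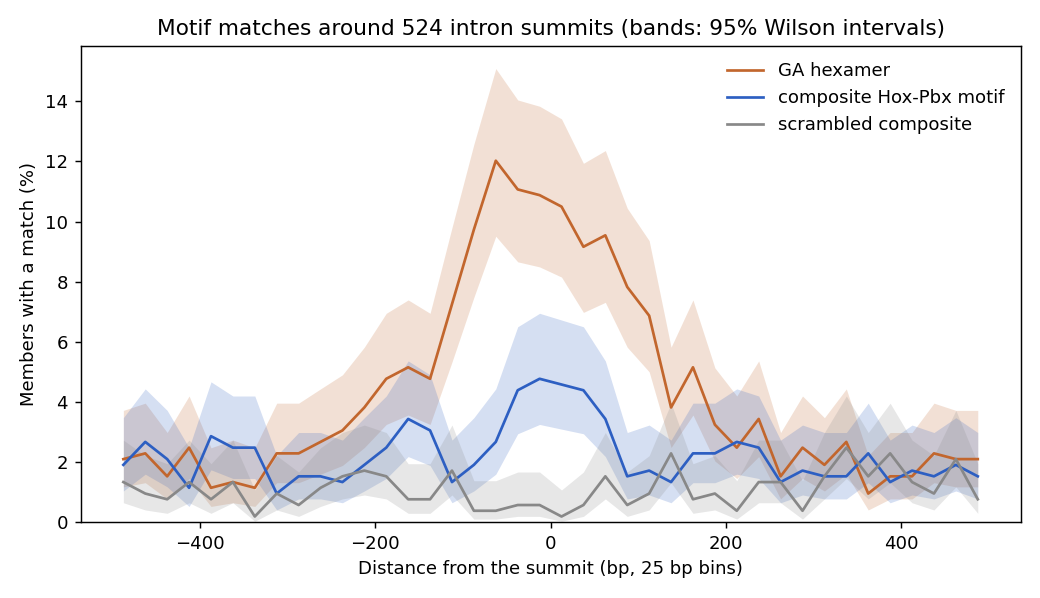
Lines give the percentage of the 524 members with GAGAGA (orange), TGATNNAT (blue) and the rearranged TATGNNTA (grey) in each 25 bp step from the summit (x axis, bp), with bands for 95% Wilson intervals. GAGAGA forms a broad rise, at 9.16% or more in every step from 100 bp before to 75 bp after the summit. Its highest value, 12.0%, lies 75 to 50 bp before the summit. TGATNNAT is at 4.39% to 4.77% in the steps within 50 bp, and TATGNNTA shows no peak there.

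Other sequences did not share this pattern. The Meis hexamer TGACAG was at 3.44% of summits and 3.05% of flanks (exact McNemar test, adjusted p = 0.909; 2.64% of the intron windows). TAATTA, a common homeodomain core, was at 1.72% and 3.82% (exact McNemar test, adjusted p = 0.0649; 5.05% of the intron windows). TATGNNTA, which rearranges the letters of the composite core, was at 1.91% of summits and 4.96% of flanks (exact McNemar test, adjusted p = 0.0194; 4.40% of the intron windows), so it was less frequent at summits. Base composition moved with these counts: the median GC content was 47.0% at intron summits and 34.7% and 35.6% in the windows 500 bp to either side, and its part in the motif shares was not tested. Promoter and intergenic summits had medians of 48.5% and 47.5%.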

How the data were processed

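Peak lists of 2 biological replicates of whole L3 larvae were used on ce11: a relaxed list per replicate, a pooled relaxed list and the optimal list, made up of the 4250 strongest entries of the pooled list. Per the deposited text indexes, the replicates share control alignments and their lists are not fully independent. Per the labels, fragments of 150 to 350 bp were sequenced. Aligner, peak caller and thresholds: not given in the sources used here. Each peak's signal is the authors' deposited value, on a scale that differs between lists. The deposited −log10 q-value was not used to rank. The same lists on ce10 were not used here. Read depth is unknown, and intervals cover counting error only.

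Summits were placed with Ensembl release 115 genes on WBcel235, which is ce11; sequence came from the RefSeq genome of that assembly. Coordinates are 1-based. Of 431 gene list entries, 5 were not matched by name. Shares were compared by exact McNemar tests, with the window 500 bp toward the lower coordinate, and two-sided Fisher's exact tests with Newcombe intervals. Benjamini-Hochberg adjustment ran over the 12 exact tests, with a threshold of 0.05. Counts per Mb have exact Poisson intervals. The placing of summits was checked against a slower look-up at random positions of the real genome. The motif search and the McNemar test were tested on simulated data. Python 3.11.15, SciPy 1.17.1, NumPy 2.4.6 and pandas 2.3.3 were used.

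Named are the host genes of the 15 strongest members, of the 8 strongest with TGATNNAT, the genes with the most members including ties, up to 4 genes per list and the 3 members with the largest ratio of ranks; *ccch-1*, shown as sequence, and the further list members *unc-40*, *unc-5*, *lin-12*, *lag-1* and *mab-5* were added after their values were seen. The members, lists and comparisons were chosen with earlier results of these data known.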

Additional observations from a re-analysis of the deposited data

How the results depend on the processing

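Of 117 values recomputed under alternatives, 90 kept their direction and their side of the threshold or stayed near the reported value. GAGAGA against flanks (12 alternatives, 16.0 to 41.2 points) and the composite core against promoters (10 alternatives, 5.70 to 12.2 points) held in every one tried. The comparisons of GAGAGA, 1 member per host gene, flanks wholly in intron and RefSeq starts were chosen after seeing the data. The cause of the changes below was not tested. Calls that ended were those of the core against flanks (2 of 12 alternatives), presence in both replicates against promoters (4 of 9), GAGAGA against promoters (2 of 10) and GAGAGA against intergenic summits (6 of 10).

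Among the 1000 strongest optimal peaks 102 members were left; the core against flanks was 5.88 points, the core against intergenic summits -3.01, the core in stronger against weaker members 1.96, presence in both replicates against promoters -1.31, and GAGAGA against intergenic summits -5.54. With each replicate's own peaks (1 replicate left out) the ranges were 3.24 to 8.41 points for the core against flanks, 1.06 to 1.11 for stronger against weaker members, 4.77 to 6.70 for the density ratio of long to short introns, 0.644 to 8.63 for GAGAGA against promoters and -12.4 to -5.11 for GAGAGA against intergenic summits. A promoter range of 2000 bp upstream to 500 bp downstream gave -5.83 points for presence in both replicates against promoters, a ratio of first to later introns of 2.83, and 3.75 and -5.61 points for GAGAGA against promoter and intergenic summits; the range of 500 to 200 bp gave 4.04 for the core against intergenic summits. Windows within 100 bp gave 5.30 for that comparison and -3.41 for GAGAGA against intergenic summits, and windows within 25 bp -4.19 for the latter. One member per host gene gave -3.01 and 3.56 points for presence in both replicates against promoter and intergenic summits, -4.49 for GAGAGA against intergenic summits and 5.01 for the length ratio. Overlap of 50% of both peaks gave -3.83 against promoters. Counting introns first in any transcript gave 2.49 for first against later introns, and exons of protein-coding genes alone 4.37 for long against short.

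Presence in both replicates has no value with a replicate left out. No paired analysis was possible because both samples belong to 1 group. Unknown depth limits what the absence of a peak in 1 replicate can show.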
